A study of Mus musculus with 16 samples.

Results

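The genes described here are 46 mouse genes of the cell cycle and of DNA replication, listed by name as a module, with no threshold on a measured value but with earlier results of these data known, out of 26089 genes with a curated RefSeq transcription start site (TSS) in mm10. The 46 genes have 54 distinct TSSs and were placed in 7 role groups, which are the MCM helicase with 6 genes, origin licensing and helicase activation with 6, the replication fork with 5, nucleotide supply with 3, G1 and S phase cyclins and kinases with 8, G2 phase and mitosis with 12, and inhibitors together with RB and E2F with 6. Splenic CD8+ T cells of OT1 mice, which carry a transgenic T cell receptor for an ovalbumin peptide, were activated for 48 h with plate-bound anti-CD3 at 2 μg/ml, soluble anti-CD28 at 2 μg/ml and IL-2 at 20 ng/ml, and were then expanded with IL-2 for 3 days. During both steps the cells received either 0.5 μM GSK2879552 (GSK), a compound that blocks the histone demethylase LSD1 irreversibly, or vehicle (Veh). Chromatin was immunoprecipitated with antibodies to LSD1, RNA polymerase II (Pol II), H3K4me3, H3K27ac, H3K4me2 and H3K4me1, which gave 12 peak lists from 1 library each. The series has 2 inputs for each treatment, and whether the 6 antibodies were used on the same culture is not given in the sources used here, so values of different antibodies may not come from the same cells. All of the cells were activated and cultured in vitro, so both treatments describe cultured T cells.

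Before a cell divides, the MCM complex is loaded on replication origins by ORC, Cdc6 and Cdt1, is switched on with Cdc45 and GINS, and is followed by polymerases held on DNA by the Pcna clamp. D-type and E-type cyclins with Cdk4, Cdk6 and Cdk2 drive the passage from G1 to S phase by phosphorylating RB, which frees E2F factors to activate replication genes, and cyclin A and B with Cdk1, Plk1 and the Aurora kinases drive G2 phase and mitosis. LSD1 takes methyl groups off H3K4me2 and H3K4me1, H3K4me3 marks active promoters, and H3K27ac marks active promoters and enhancers.

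The 12 lists held from 2751 peaks (GSK H3K27ac) to 40272 peaks (GSK H3K4me1), with 7410 for Veh H3K27ac, 15219 and 9437 for Veh and GSK H3K4me2, and lists of like length between treatments for LSD1, Pol II and H3K4me3. Sequencing depth was not computed here, since peak lists do not carry it. The study reports fewer unique read pairs for GSK than for Veh H3K27ac and H3K4me2 and more for GSK H3K4me1 and Pol II, and its part in the values below was not tested. Every antibody and treatment had 1 library, so no difference could be set against a spread between replicates and no p-value is given. Fold enrichment here is the ratio of ChIP signal to background that the peak caller wrote for each peak, and a percentile is the share of peaks of the same list with a lower or equal fold, with ties shared. H3K4me3 marked the promoters of all 9 annotated CD8 T cell genes tested in both treatments, against 1 of 5 B cell genes (Cd79b), 0 of 5 myeloid genes, 0 of 2 NK cell genes and 1 of 4 CD4 T cell genes (Zbtb7b). Pol II lay at only 5 of the 9 CD8 T cell genes in Veh and 7 in GSK. Among the genes of the other cell types it lay at the myeloid gene Cd68 alone, in Veh. In bulk chromatin, fewer cells that carry a mark and less of the mark in each cell cannot be told apart.

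Promoter sequences from RefSeq (GRCm38.p6, 250 bases before to 50 bases after the TSS) were at hand for 36 of the 46 genes, in 41 promoters. Foxm1, Aurkb, Mcm4, Gins1, Ccne2, Pole, Ccna2, Rb1, Ccnd2 and Gins2 had no entry. These windows were searched on both strands for E2F sites (TTTCCCGC, TTTCGCGC, TTTGCCGC or TTTGGCGC), for the cell cycle homology region or CHR (TTTGAA or TTCGAA, the latter being its own reverse complement) and for CCAAT boxes (CCAAT). An E2F match lay in 13 of 36 genes (36.1%) against 2.605% of all 27025 genes with a promoter in the table. A CHR match also lay in 13 of 36 genes (36.1%), against 21.7% of all genes, and CCAAT lay in 27 of 36 (75%) against 41.1%. The motifs were spread unevenly over the roles. E2F matches lay in 4 of 5 MCM genes (Mcm3, Mcm5, Mcm6 and Mcm7) and in 3 of 4 origin genes (Orc1, Cdc6 and Cdt1), but in 1 of 9 genes of G2 phase and mitosis (Cdk1). CHR matches lay in 8 of those 9 genes, all but Ccnb1, and in 0 of 6 cyclins and kinases of G1 and S phase. All 9 held CCAAT. The median ratio of observed to expected CpG was 0.935 in the 41 promoters and 0.384 in all 32851 promoters. A match is a description of the letters in this window, not a bound site.

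A few promoters that hold matches are printed as examples of the motifs, and they were not picked by a fixed rule. Rfc4, Tyms, Ccne1, Cdk4, Cdk6, Cdkn1a and E2f1, which are not printed, had no match of any kind. Each promoter is given 5′ to 3′ on the strand of the gene, with E2F, CHR and CCAAT matches on either strand in capitals. In the Mcm5 promoter 2 E2F matches on opposite strands overlap in 1 run of 12 capitals, and in Mcm3 the E2F matches lie just after the TSS. Top2a carries 4 CHR and 6 CCAAT matches, Cdk1 carries all 3 kinds, Plk1 has 1 CHR and 1 CCAAT, and Pcna has a CCAAT box only.
Mcm5, chr8:75109259-75109558, plus strand: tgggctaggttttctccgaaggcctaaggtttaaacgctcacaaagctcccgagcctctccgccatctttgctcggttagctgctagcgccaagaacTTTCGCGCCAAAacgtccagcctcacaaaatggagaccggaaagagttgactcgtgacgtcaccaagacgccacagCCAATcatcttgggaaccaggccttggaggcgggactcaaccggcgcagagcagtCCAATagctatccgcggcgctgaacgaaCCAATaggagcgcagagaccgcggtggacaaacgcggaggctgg
Mcm3, chr1:20820263-20820562, minus strand: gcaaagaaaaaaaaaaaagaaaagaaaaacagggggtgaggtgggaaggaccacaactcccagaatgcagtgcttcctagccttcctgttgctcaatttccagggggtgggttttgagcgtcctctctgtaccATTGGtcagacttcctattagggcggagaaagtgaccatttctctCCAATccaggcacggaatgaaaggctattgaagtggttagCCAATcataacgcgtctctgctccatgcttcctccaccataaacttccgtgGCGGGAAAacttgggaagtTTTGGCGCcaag
Pcna, chr2:132253131-132253430, minus strand: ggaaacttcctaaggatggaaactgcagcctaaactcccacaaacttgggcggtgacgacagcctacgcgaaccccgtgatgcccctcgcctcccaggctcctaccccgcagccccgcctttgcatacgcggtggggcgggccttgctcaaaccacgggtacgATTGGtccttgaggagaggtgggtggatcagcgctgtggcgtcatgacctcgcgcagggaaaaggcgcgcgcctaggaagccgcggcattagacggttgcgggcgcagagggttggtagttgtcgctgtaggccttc
Top2a, chr11:99024140-99024439, minus strand: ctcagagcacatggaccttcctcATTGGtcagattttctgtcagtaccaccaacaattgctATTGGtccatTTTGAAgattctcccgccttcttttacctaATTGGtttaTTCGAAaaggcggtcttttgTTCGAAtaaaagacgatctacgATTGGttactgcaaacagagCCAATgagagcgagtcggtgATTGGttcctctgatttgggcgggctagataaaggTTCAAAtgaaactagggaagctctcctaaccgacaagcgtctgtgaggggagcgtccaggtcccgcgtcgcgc
Cdk1, chr10:69352863-69353162, minus strand: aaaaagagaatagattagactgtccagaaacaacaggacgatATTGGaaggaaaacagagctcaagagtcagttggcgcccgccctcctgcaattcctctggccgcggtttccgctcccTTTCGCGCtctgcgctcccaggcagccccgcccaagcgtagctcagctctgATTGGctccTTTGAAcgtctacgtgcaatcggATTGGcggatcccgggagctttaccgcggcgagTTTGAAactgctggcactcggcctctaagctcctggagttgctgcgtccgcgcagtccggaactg
Plk1, chr7:122159185-122159484, plus strand: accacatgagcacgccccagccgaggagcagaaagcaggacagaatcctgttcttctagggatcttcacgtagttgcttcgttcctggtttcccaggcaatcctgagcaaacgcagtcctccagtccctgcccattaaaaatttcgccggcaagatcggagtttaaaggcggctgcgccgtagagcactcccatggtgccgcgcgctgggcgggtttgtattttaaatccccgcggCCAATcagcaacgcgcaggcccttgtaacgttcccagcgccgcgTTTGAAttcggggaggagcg

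Over the whole module, nearly every gene carried H3K4me3 at its promoter (within 1 kb of any of its TSSs) in both treatments, and most carried LSD1 and Pol II. H3K4me3 was found at 45 of 46 genes in the Veh list and at the same 45 in the GSK list, against 50.2% and 51.3% of all genes. Only Ccna2 had no H3K4me3 peak in the window. No member had H3K4me3 in 1 treatment only, where 0.333% of all genes had it in Veh only and 1.48% in GSK only. LSD1 lay at 34 members in Veh and 39 in GSK, against 36.5% and 41.8% of all genes. All 34 with LSD1 in Veh also had an LSD1 peak within the window in GSK, though at Orc1, Ccne1 and Cdk1 the Veh and GSK peaks did not overlap, and Mcm3, Rrm2, Cdk2, Cdk6 and Cdc20 had one in GSK only. For all genes, 4.46% had LSD1 in Veh only and 9.78% in GSK only, and of the genes with LSD1 in Veh 12.2% had none in GSK. Pol II lay at 43 members in Veh and 37 in GSK, against 29.4% and 25% of all genes. Where it was called, its median percentile was near that of other promoter peaks. It was 75.4 in Veh and 76.0 in GSK for the members, beside 76.5 and 79.0 for all genes with a peak. The 6 members with Pol II in Veh only were Mcm3, Rfc3, Cdk6, Cdc25a, Foxm1 and E2f1, and none had it in GSK only, beside 7.35% and 2.95% of all genes. Read against the genes with Pol II in Veh, these 6 were 13.95% of 43 members, below the 24.98% of 7677 genes with Pol II in Veh that had none in GSK. Cdc6, Gins2 and Ccnd3 had no Pol II peak in either list.

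**Figure D1:**
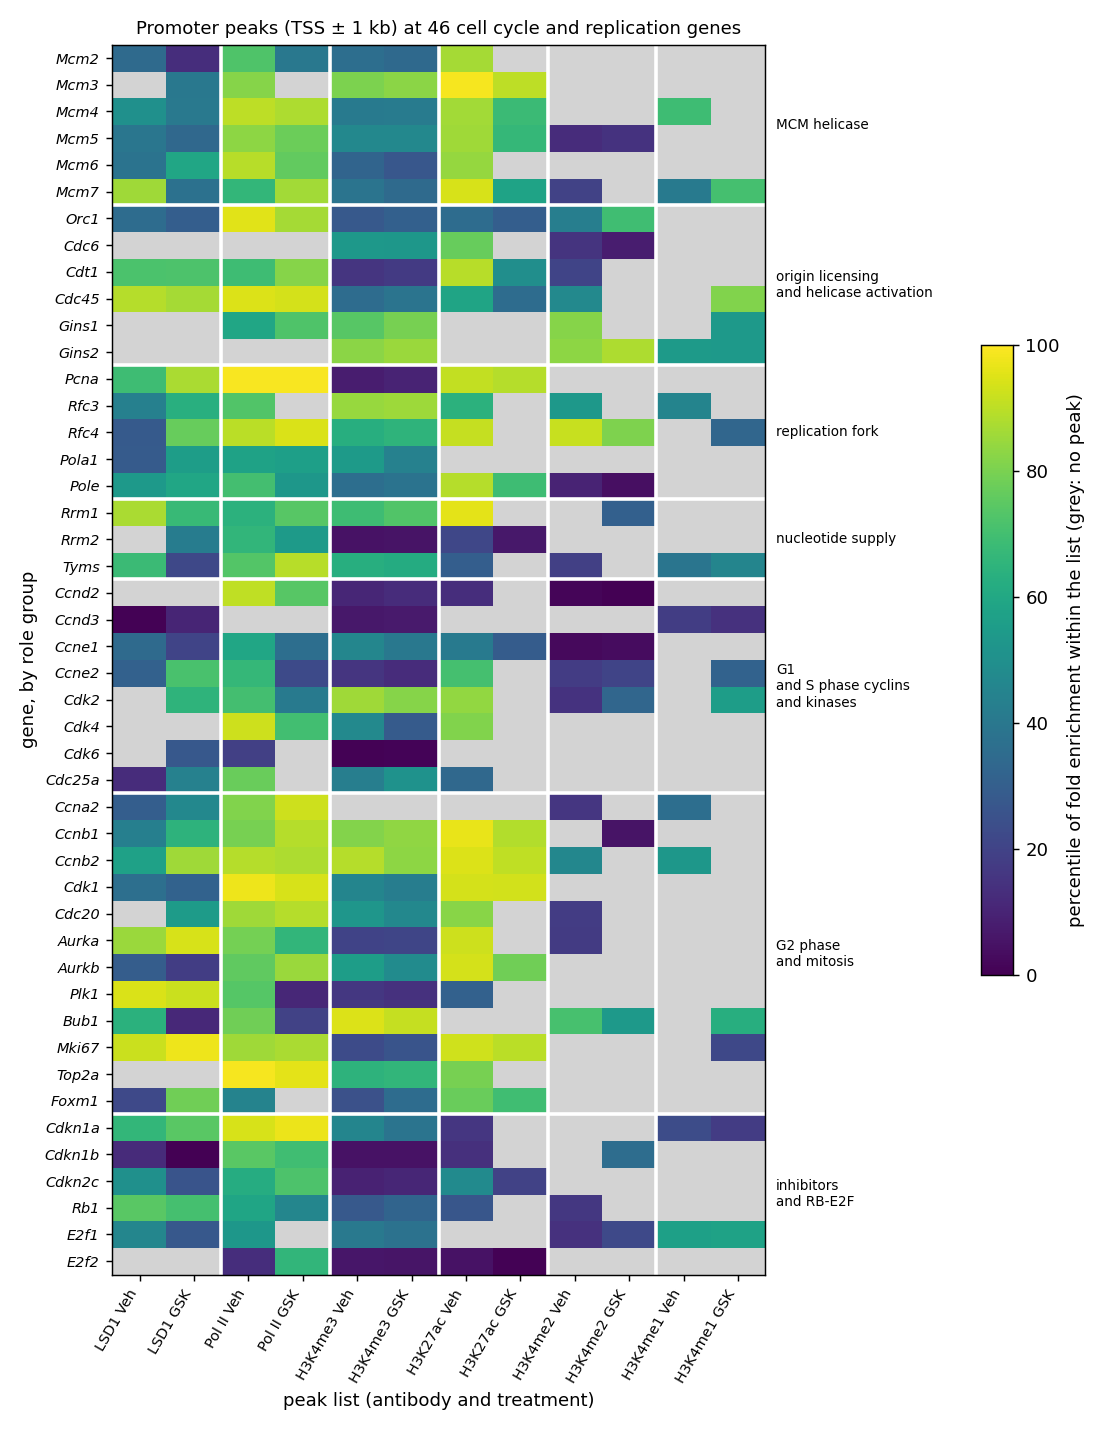
Heat map of the promoter peaks of the 46 genes (rows, by role group) in the 12 peak lists (columns, Veh beside GSK for each antibody), 1 library per list. Colour gives the percentile of the strongest peak's fold enrichment within its list from 0 to 100, and grey marks no peak. The H3K4me3 columns are filled in 45 rows of both treatments, while the H3K27ac column holds 38 filled rows in Veh and 19 in GSK.

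H3K27ac was the mark whose count of members differed most between the treatments. It lay at 38 members in Veh and 19 in GSK, against 20.6% and 8.61% of all genes. All 19 members with H3K27ac in GSK also had it in Veh, so 19 members had it in Veh only and 0 in GSK only, beside 12.3% and 0.333% of all genes. Read against the genes with H3K27ac in Veh, 50% of the 38 members had none in GSK, below the 59.8% of 5367 genes. The percentile of every one of the 19 shared members was lower in GSK, with a median difference of -11.9 points, beside -6.7 points over 2159 genes with H3K27ac in both lists. These values depend on the length of the lists. With the Veh list cut to its 2751 peaks of highest significance, the length of the GSK list, H3K27ac lay at 26 members in Veh and 19 in GSK, with 11 in Veh only and 4 in GSK only, and the median difference turned to 3.71 points, with 9 of 15 members higher in GSK and 6 lower. The H3K27ac calls and percentiles of Veh and GSK given for single genes below use the full lists, so their differences hold the difference in list length. The members in Veh only at equal length were Mcm2, Mcm6, Cdc6, Rfc4, Rrm1, Ccne2, Cdk2, Cdk4, Cdc20, Aurka and Top2a. At that length 9.06% of all genes had H3K27ac in Veh and 8.61% in GSK.

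H3K4me2 and H3K4me1 were less common at these promoters. H3K4me2 lay at 23 members in Veh and 15 in GSK, against 39.2% and 28.3% of all genes. There were 11 members with H3K4me2 in Veh only and 3 in GSK only (Rrm1, Ccnb1 and Cdkn1b), beside 12.8% and 1.94% of all genes. Of the members with H3K4me2 in Veh 47.8% had none in GSK, beside 32.8% of all genes with it in Veh. With lists of equal length the count was 11 in Veh and 15 in GSK, beside 26.9% and 28.3% of all genes. The share of members in Veh then lay below that of all genes. At that length the split turned, with 4 members in Veh only (Cdt1, Cdc45, Gins1 and Ccnb2) and 8 in GSK only. The H3K4me2 calls and percentiles given for single genes below use the full lists. H3K4me1 lay at 10 members in Veh and 13 in GSK, below the 30.4% and 36.9% of all genes. It was in Veh only at Mcm4, Rfc3, Ccna2 and Ccnb2 and in GSK only at Cdc45, Gins1, Rfc4, Ccne2, Cdk2, Bub1 and Mki67, beside 3.43% and 9.89% of all genes.

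The members were also set beside the 12997 genes with H3K4me3 in both treatments. Among the 45 members with H3K4me3, 73.3% had LSD1 in Veh and 84.4% in GSK, beside 69.5% and 79.0% of those genes. Pol II was found at 93.3% and 80% of the members, beside 58.0% and 49.2%, and H3K27ac at 84.4% and 42.2%, beside 41.0% and 17.2%. H3K4me2 was found at 48.9% and 33.3% of the members, beside 73.5% and 53.2%, and H3K4me1 at 20% and 28.9%, beside 49.2% and 59.5%. The members thus stood above the other H3K4me3 genes in Pol II and H3K27ac, below them in H3K4me2 and H3K4me1, and near them in LSD1. LSD1, H3K4me3, H3K27ac and Pol II lay together at 29 of 46 members in Veh (63.0%) and 16 in GSK (34.8%), beside 27.2% and 13.3% of the genes with H3K4me3.

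**Figure D2:**
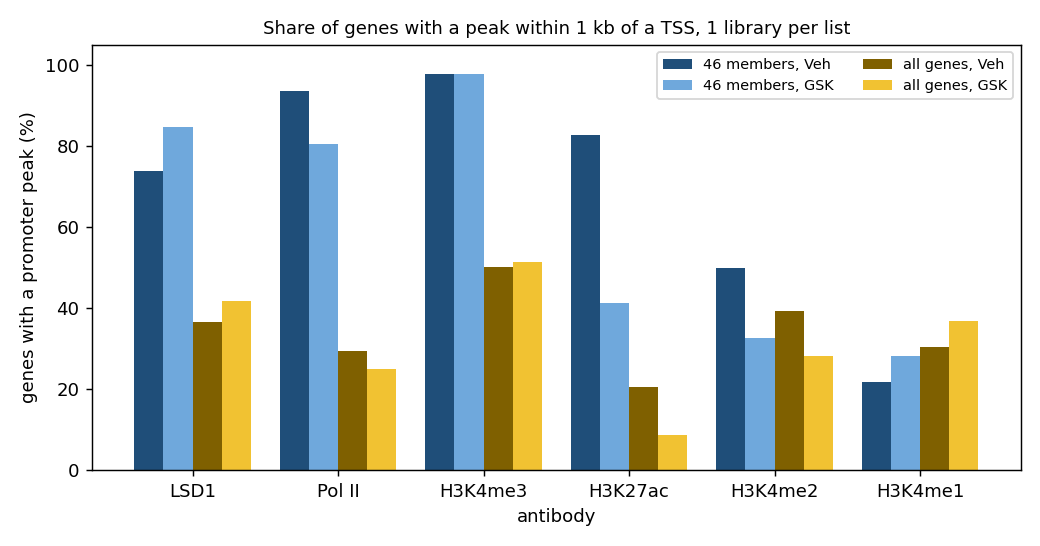
Bars give the percent of the 46 members (blue) and of all 26089 genes (brown and yellow) with a peak within 1 kb of a TSS, for each antibody in Veh (dark) and GSK (light), 1 library per list and no error bar. The members exceed all genes for LSD1, Pol II, H3K4me3, H3K27ac and H3K4me2, and lie below them for H3K4me1. For H3K4me2 in Veh the order turns with lists of equal length, to 11 of 46 members beside 26.9% of all genes.

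The median difference in percentile between treatments, taken over genes with a peak in both lists, was small for most antibodies. Each value is that of the strongest peak in the window, and the Veh and GSK peaks compared overlapped at all 45 members for H3K4me3, 19 for H3K27ac and 12 for H3K4me2, at 30 of 34 for LSD1, 35 of 37 for Pol II and 4 of 6 for H3K4me1. The exceptions were Mcm4, Orc1, Ccne1 and Cdk1 for LSD1, Mcm4 and Ccne2 for Pol II, and Mcm7 and Gins2 for H3K4me1, where the values belong to different peaks. For LSD1 it was -0.94 points over 34 members, of which 17 were higher and 17 lower in GSK, beside 6.23 points over 8348 genes. For Pol II it was -2.11 points over 37 members, 14 higher and 23 lower, beside -0.19 points over 5759 genes. H3K4me3 gave 0.22 points over 45 members, H3K4me2 1.36 points over 12 and H3K4me1 0.18 points over 6, beside 0.54, -4.74 and 1.36 points over all genes. The sign of the Pol II median held under all 8 other settings tried, but ranking by −log10 p left it at -0.09 points, near no difference. The signs of the other medians turned under at least 1 of these settings.

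All 6 MCM genes, which encode the ring of the replicative helicase, had Pol II in Veh and 5 had it in GSK. The median percentile of those with a peak was 82.5 in Veh and 77.7 in GSK, beside 76.5 and 79.0 over all genes. Mcm4 had the highest mean Pol II percentile of the group, at 89.96 in Veh and 87.85 in GSK. Its strongest Pol II peaks in the 2 lists lay 243 bp apart. Its strongest LSD1 peaks, at percentile 50.0 in Veh and 40.5 in GSK, were different peaks too, 402 bp apart with summits 707 bp after and 452 bp before the TSS. Its H3K4me3 stood at 41.0 and 41.6, and its H3K27ac at 86.2 and 68.2. It had H3K4me1 in Veh only (69.0) and no H3K4me2. The Mcm4 TSS lies 466 bp from that of Prkdc on the other strand, so its peaks cannot be assigned to 1 gene. Mcm3 was the member of this group that differed most in presence. It had Pol II in Veh with a fold of 5.82 (percentile 81.9) and none in GSK, where the nearest Pol II peak lay 70234 bp away. LSD1 was the reverse, with no peak within 4533 bp in Veh and a fold of 4.17 (percentile 39.9) in GSK. H3K4me3 (80.2 and 82.7) and H3K27ac (98.8 and 89.9) were present in both, and Mcm3 held the highest H3K27ac percentile of all members in Veh.

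Mcm7 moved in opposite directions for the 2 proteins. Its LSD1 percentile was 85.6 in Veh and 37.2 in GSK, while Pol II was 66.2 and 86.1, the second largest Pol II increase of the module. H3K27ac stood at 93.8 and 58.1, H3K4me1 at 40.7 and 70.7 in peaks 2228 bp apart, H3K4me3 at 38.4 and 34.7, and H3K4me2 was present in Veh only (19.7). The closer of its TSSs lies 138 bp from that of Ap4m1, encoding a subunit of an adaptor complex. Pol II at Mcm2 stood at 72.4 and 40.2, at Mcm5 at 83.1 and 77.7 and at Mcm6 at 89.4 and 76.0, so that 4 of the 5 MCM genes with Pol II in both lists were lower in GSK. H3K27ac lay at all 6 in Veh and was not called at Mcm2 and Mcm6 in GSK.

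Among the genes that license origins and switch on the helicase, Cdc45 and Orc1 had strong Pol II and the others less or none. Cdc45, which joins MCM and GINS in the active helicase, had Pol II at percentile 94.8 in Veh and 93.5 in GSK and LSD1 at 88.8 and 86.3. Its H3K4me3 stood at 35.4 and 38.3 and its H3K27ac at 58.6 and 35.3, with H3K4me2 in Veh only (47.1) and H3K4me1 in GSK only (81.2). Its TSS lies 322 bp from that of Ufd1. Orc1, the largest subunit of the origin recognition complex, had Pol II at 95.3 and 86.4, and its H3K4me2 was higher in GSK (42.6 and 69.2). LSD1 at Orc1 stood at 35.3 and 30.0, in separate peaks 80 bp apart, H3K4me3 at 27.8 and 30.6, and H3K27ac at 35.4 and 30.0. Cdt1, the loader that is removed after S phase begins, had H3K27ac at 89.1 and 49.3 in the full lists, with a nearly level fold of 5.01 and 4.90, and at 70.8 and 49.3 in lists of equal length. Its LSD1 was nearly level at 71.7 and 72.2, its Pol II stood at 68.9 and 81.7 and its H3K4me3 at 15.4 and 17.1, and its H3K4me2 was in Veh only (20.6).

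Cdc6, Gins1 and Gins2 had no LSD1 peak in either list, and Cdc6 and Gins2 had no Pol II peak either. Cdc6 had H3K4me3 at 53.2 and 52.8, H3K4me2 at 15.0 and 7.9, and H3K27ac in Veh only (76.6). Gins2 had neither Pol II nor H3K27ac but carried H3K4me3 (82.6 and 85.1), H3K4me2 (83.1 and 87.7) and H3K4me1 (54.6 and 53.9, in peaks 1194 bp apart) in both treatments. Gins1, a partner subunit in the GINS complex, had Pol II at 59.1 and 72.5 and H3K4me3 at 74.1 and 79.3.

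All 5 genes of the replication fork had a higher LSD1 percentile in GSK, with a median difference of 19.3 points, beside 5378 of 8348 genes that were higher. The other groups did not share this. Genes higher and lower in GSK numbered 1 and 4 for MCM, 1 and 2 for origin licensing and 0 and 2 for nucleotide supply. They numbered 3 and 1 for G1 and S phase, 6 and 4 for G2 phase and mitosis, and 1 and 4 for inhibitors, RB and E2F. Rfc4, a subunit of the clamp loader, had LSD1 at 28.4 in Veh and 76.7 in GSK, and Rfc3, another subunit, at 43.7 and 63.0. Pola1, the catalytic subunit of the priming polymerase, stood at 28.7 and 55.8, Pole at 53.7 and 59.3, and Pcna at 69.0 and 87.2. Pol II at the replication fork genes did not share the direction of LSD1. Pcna, the sliding clamp, had the strongest Pol II of all members in both treatments, with a fold of 12.91 (rank 152 of 15638, percentile 99.0) in Veh and 10.23 (rank 172 of 15401, percentile 98.9) in GSK. Its H3K27ac stood at 90.8 and 88.8 and its H3K4me3, spread over 2235 and 2202 bp, at 8.0 and 9.9, and it had no H3K4me2 or H3K4me1.

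Rfc4 had Pol II at 89.5 and 94.2, H3K4me3 at 62.9 and 65.0 and H3K4me2 at 91.7 and 80.6, the highest H3K4me2 of the module in Veh. Its H3K27ac (91.3) was called in Veh only and its H3K4me1 (33.0) in GSK only. Rfc3 had a peak of all 6 antibodies in Veh, of which only LSD1 and H3K4me3 were called in GSK. Pol II (72.8), H3K27ac (64.4), H3K4me2 (53.4) and H3K4me1 (45.2) were called in Veh only, and H3K4me3 (84.4 and 85.3) in both. With lists of equal length Rfc3 had Pol II and H3K4me1 in Veh only, but H3K27ac and H3K4me2 were no longer called in Veh. The nearest GSK Pol II peak to Rfc3 lay 233574 bp away. Pola1 had H3K4me3 at 54.7 and 44.0, Pol II at 57.6 and 56.6 and no H3K27ac, and Pole, whose TSS lies 151 bp from that of Pxmp2, had Pol II at 70.0 and 52.9 and H3K27ac at 88.9 and 68.8.

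The genes of nucleotide supply kept Pol II in both treatments. Tyms, the thymidylate synthase, had Pol II at 73.2 in Veh and 89.2 in GSK and LSD1 at 68.2 and 21.6. Its H3K4me3 was level at 62.9 and 61.7, its H3K4me1 stood at 39.0 and 45.7, and its H3K27ac (29.9) and H3K4me2 (18.8) were in Veh only. Rrm1, the large subunit of ribonucleotide reductase, had LSD1 at 87.3 and 67.5, Pol II at 64.4 and 74.0, H3K4me3 at 68.9 and 72.7, H3K4me2 in GSK only (30.6), and an H3K27ac peak at 95.8 in Veh that was not called in GSK. Rrm2, the small subunit, had no LSD1 in Veh, with the nearest peak 1274 bp away, and LSD1 at 42.1 in GSK. Pol II at Rrm2 stood at 65.8 and 54.3, H3K27ac at 21.1 and 6.5, and H3K4me3 at 5.0 and 5.2 in peaks of 2801 and 2796 bp.

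**Figure D3:**
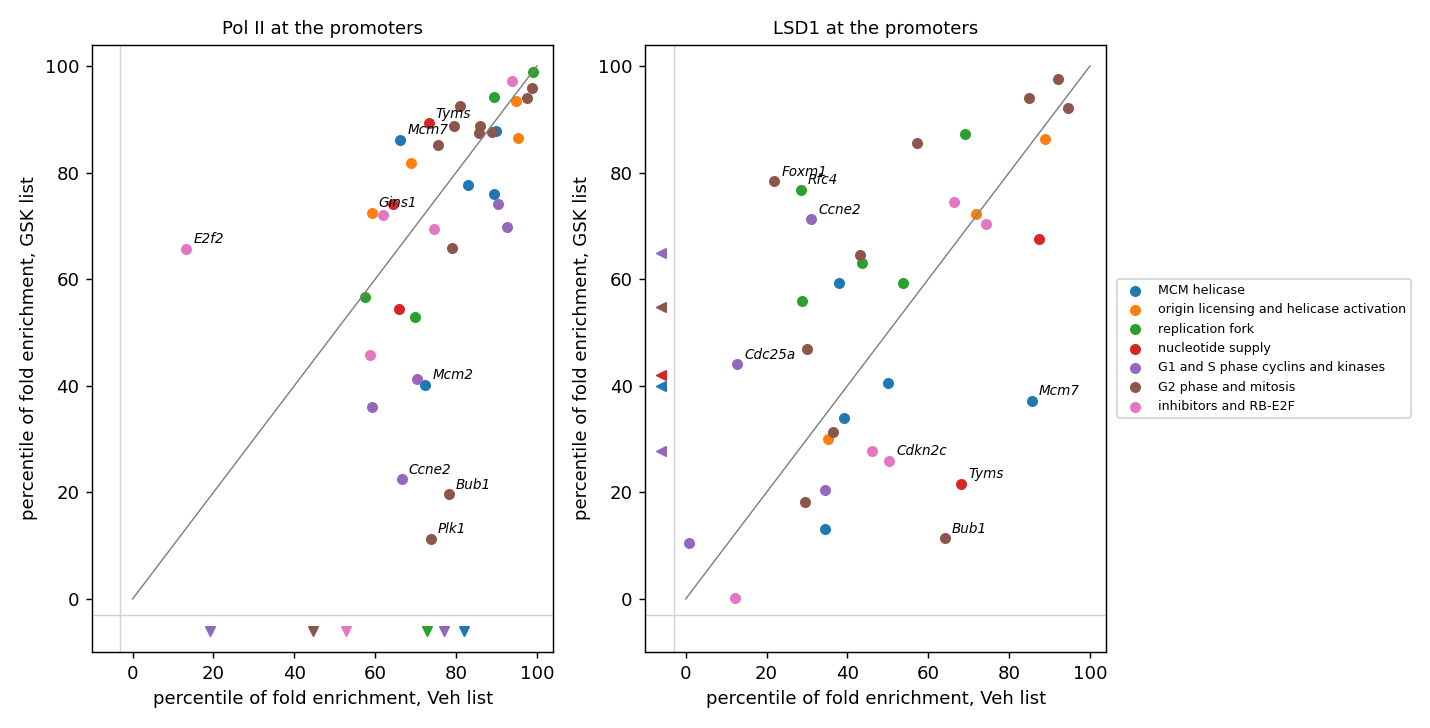
Each dot is a member with a peak in both lists, with its percentile of fold enrichment in Veh (x axis) and GSK (y axis) for Pol II (left) and LSD1 (right), coloured by role group, with the diagonal in grey. Triangles below 0 mark the 6 members with Pol II in Veh only, triangles to the left of 0 the 5 members with LSD1 in GSK only, and the 4 largest differences in each direction are named. All 5 cyclins and kinases of G1 and S phase with Pol II in both lists lie under the diagonal, and all 5 replication fork genes lie above it for LSD1.

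Pol II was lower in GSK, or called in Veh only, at 7 of the 8 cyclins and kinases of G1 and S phase, and Ccnd3 had no promoter Pol II in either list. All 5 members with Pol II in both lists were lower, with a median difference of -23.2 points, beside 2981 of 5759 genes that were lower. Cdk6 and Cdc25a had Pol II in Veh only, beside 1918 of 7677 genes with Pol II in Veh. Of 6 MCM genes with Pol II in Veh, 4 were lower and 1 had it in Veh only. For the replication fork these numbers were 3 and 1 of 5, and for G2 phase and mitosis 6 and 1 of 12. They were 2 and 0 of 4 for origin licensing, 1 and 0 of 3 for nucleotide supply, and 2 and 1 of 6 for inhibitors, RB and E2F. In the G1 and S phase group, cyclin D2 (Ccnd2), its leader, stood at 90.4 in Veh and 74.2 in GSK, and Cdk4, the kinase partner of Ccnd2, at 92.5 and 69.7. Ccne1 stood at 59.2 and 36.0, Ccne2 at 66.6 and 22.5 in separate peaks 332 bp apart, and Cdk2, the partner of cyclin E, at 70.3 and 41.3. Cdc25a, the phosphatase that activates Cdk2, had a Pol II fold of 5.39 (percentile 77.1) in Veh and no peak within 56191 bp in GSK. Pol II at Cdk6 was weak in Veh (19.1), with its summit 878 bp before the TSS, and the Cdk6 TSS lies 334 bp from that of Gm36470.

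LSD1 had a higher percentile in GSK at 3 of the 4 genes of this group with a peak in both lists, and Ccne1 was the exception. It was in GSK only at Cdk2 (65.0) and Cdk6 (27.7), and it stood at 30.9 and 71.2 at Ccne2, at 12.7 and 44.0 at Cdc25a and at 0.78 and 10.5 at Ccnd3. At Ccne1 it stood at 34.5 and 20.5, in separate peaks 402 bp apart. Ccnd2 and Cdk4 had no LSD1 promoter peak in either list. H3K27ac was called at 6 of these 8 genes in Veh and at 1 in GSK (Ccne1, 40.9 and 29.0), beside 20.6% and 8.61% of all genes. It was in Veh only at Cdk2 (83.9), Cdk4 (81.2), Ccne2 (70.3), Cdc25a (33.7) and Ccnd2 (13.0). With lists of equal length it was in Veh only at Cdk2, Cdk4 and Ccne2, and no longer at Cdc25a and Ccnd2. H3K4me3 at Cdk4 stood at 47.2 and 28.6, the largest H3K4me3 decrease of the module, while Cdc25a stood at 42.8 and 51.1, Cdk2 at 85.9 and 81.8, Ccne2 at 15.5 and 12.6 and Ccnd2 at 10.7 and 12.9. Cdk2 had H3K4me2 at 14.5 and 33.0 and H3K4me1 in GSK only (55.6), and Ccnd2 had H3K4me2 at 1.38 and 0.12. Ccnd3 had no promoter Pol II, the nearest peak lying 2734 bp from a TSS in Veh and 2664 bp in GSK, and no H3K27ac or H3K4me2, and carried H3K4me3 (6.4 and 7.3) and H3K4me1 (18.1 and 14.1).

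The genes of G2 phase and mitosis all had Pol II in Veh, and 11 of 12 had it in GSK. Top2a, the topoisomerase that untangles sister chromosomes, had a Pol II fold of 12.09 (rank 203) in Veh and 6.91 (rank 631) in GSK, percentiles 98.7 and 95.9. It had no LSD1 peak within 17108 bp in Veh or 17097 bp in GSK, H3K4me3 at 64.7 and 66.0, and H3K27ac in Veh only (79.6). Cdk1, the mitotic kinase, stood at 97.4 and 94.0 for Pol II and at 93.7 and 93.0 for H3K27ac, with an H3K27ac fold of 5.399 and 6.498. Pol II was also high in both lists at cyclins B1 (79.5 and 88.7) and B2 (88.9 and 87.6), at Cdc20 (85.9 and 88.8) and at Mki67 (85.6 and 87.4).

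Plk1 and Bub1 had the largest Pol II differences of all members. Plk1, a kinase of mitotic entry, had a Pol II fold of 5.11 in Veh and 2.87 in GSK, percentiles 73.8 and 11.3. Its LSD1 was strong and nearly level at 94.5 and 92.2, its H3K4me3 stood at 16.1 and 14.3, and H3K27ac was called in Veh only (30.9). Bub1, a kinase of the spindle checkpoint, had Pol II at 78.2 and 19.7 together with LSD1 at 64.0 and 11.4. H3K4me3 at Bub1 was the highest of all members in both lists (94.8 and 91.3), H3K4me2 stood at 70.9 and 53.8, H3K4me1 was called in GSK only (62.7), and there was no H3K27ac.

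Mki67, the gene of the proliferation antigen Ki-67, had the strongest LSD1 peak of the module in GSK, with a fold of 8.93 (rank 479 of 19919, percentile 97.6), after 6.89 (percentile 92.1) in Veh. Foxm1, a transcription factor of G2 and mitotic genes, had the largest LSD1 increase, from percentile 22.0 to 78.4, and the largest H3K4me3 increase, from 24.7 to 35.2. Its Pol II peak (44.7) was in Veh only, its H3K27ac stood at 77.2 and 69.4 and it had no H3K4me2 or H3K4me1, at a promoter whose TSS lies 83 bp from that of Rhno1. Cdc20, the activator of the anaphase-promoting complex, had LSD1 in GSK only (54.7), with no Veh peak within 76665 bp. Its H3K4me3 stood at 52.7 and 46.7, and its H3K27ac (82.1) and H3K4me2 (17.8) were in Veh only. Aurka had LSD1 at 85.0 and 94.1 and lies 433 bp from the TSS of Cstf1, while Aurkb stood at 29.5 and 18.3.

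Ccna2, which encodes cyclin A2, was the member without H3K4me3 within 1 kb of its TSS. The nearest H3K4me3 peak began 1104 bp away in Veh and 1039 bp in GSK, and the nearest H3K27ac peak 1134 and 1312 bp away, just outside the window. The Pol II summit lay 1195 bp downstream of the annotated TSS in Veh and 1118 bp in GSK, at percentiles 81.0 and 92.5, and the LSD1 peaks (30.0 and 46.9) had their summits 1497 and 1165 bp downstream. H3K4me2 (15.8) and H3K4me1 (35.9) were in Veh only. With a window of 2.5 kb, H3K4me3 was found at all 46 genes in both treatments, Ccna2 included.

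Of the inhibitors and the RB and E2F genes, Cdkn1a (p21) had the strongest Pol II. Its percentile was 93.8 in Veh and 97.1 in GSK, with the summit 38 and 37 bp from its TSS. LSD1 at Cdkn1a stood at 66.3 and 74.6 with summits 1607 and 1029 bp from a TSS, H3K4me3 at 45.6 and 38.6 and H3K4me1 at 23.1 and 17.6, and H3K27ac was in Veh only (15.8). Cdkn1b (p27) had Pol II at 74.6 and 69.5, LSD1 at 12.1 and 0.16, the lowest LSD1 percentile of the module, H3K4me3 at 4.9 and 5.0, H3K27ac in Veh only (13.8) and H3K4me2 in GSK only (35.6). Cdkn2c (p18) had Pol II at 61.9 and 72.1 and LSD1 at 50.2 and 25.9. Rb1, the gene of the RB protein, had Pol II at 58.8 and 45.9, LSD1 at 74.3 and 70.3 and H3K4me3 at 27.8 and 32.3, with H3K27ac (26.7) and H3K4me2 (16.3) in Veh only.

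The activator genes E2f1 and E2f2 went opposite ways for Pol II. E2f1 had Pol II in Veh only (52.9) and LSD1 at 46.02 and 27.70, with H3K4me3 at 40.3 and 37.8, H3K4me2 at 14.3 and 22.1, H3K4me1 at 56.7 and 57.6 and no H3K27ac. E2f2 had the largest Pol II increase of the module, from a fold of 3.12 (percentile 13.2) in Veh to 3.81 (percentile 65.7) in GSK, with summits 809 and 762 bp from a TSS. E2f2 had no LSD1 peak in the window, the nearest lying 1846 bp away in Veh and 1824 bp in GSK. H3K4me3 stood at 6.2 and 5.5. H3K27ac at E2f2 was near the bottom of both lists, at 4.8 and 0.76, in regions of 1686 and 1124 bp.

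Across the module, Pol II summits lay close to the TSS and LSD1 summits were spread more widely. The median Pol II summit was 62 bp downstream of the nearest TSS in Veh and 56 bp in GSK, and 34 of 43 and 29 of 37 summits lay within 250 bp, or 79.1% and 78.4% beside 74.7% and 74.6% for all genes. LSD1 summits lay within 250 bp at 14 of 34 members in Veh and 20 of 39 in GSK, or 41.2% and 51.3% beside 51.1% and 56.3%. A TSS of another gene lay within 1 kb of a TSS of 8 members (17.4%), all on the other strand, beside 17.1% of all genes. They are Mcm4, Mcm7, Orc1, Cdc45, Pole, Cdk6, Aurka and Foxm1, and peaks there may belong to either gene.

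The H3K4me3 peaks of the members were wide, with a median fold percentile below that of all genes with a peak. For the strongest peak this percentile was 41.0 in Veh and 38.3 in GSK, beside 55.8 and 56.7. The widest H3K4me3 peak of a member had a median width of 1792 bp in Veh and 1667 bp in GSK, beside 1261 and 1240 bp over all genes with a peak. Of the 45 members, 18 in Veh and 19 in GSK were among the widest 10% of their list, or 40% and 42.2% beside 15.1% and 15.5% of all genes. Cdk6 had the widest (3834 and 3852 bp), followed in Veh by Rrm2 (2801 bp), Ccnd3 (2692 bp), Cdkn1b (2623 bp) and E2f2 (2600 bp), and its fold percentile was the lowest, at 0.78 and 0.96. The peak caller averages fold over the whole width of these regions, so that a wide region tends to have a low fold. Mcm2 had the narrowest in Veh, with 574 bp.

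**Figure D4:**
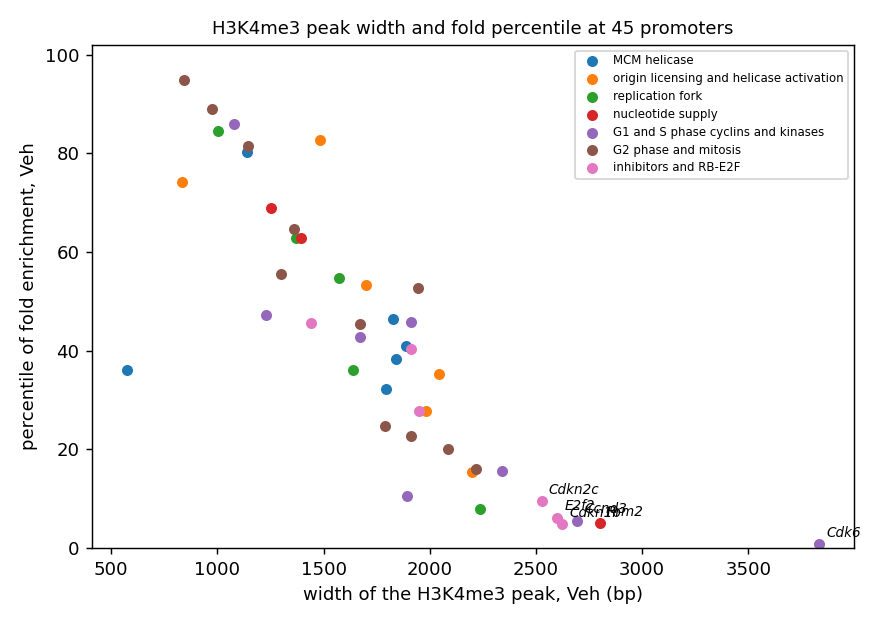
Width of the widest H3K4me3 promoter peak (x axis, bp) against its percentile of fold enrichment (y axis) in the Veh list for 45 members, coloured by role group, with the 6 widest named. The widest peak, at Cdk6 with 3834 bp, has the lowest percentile (0.78), and the peak of Bub1, with 842 bp, has the highest (94.8).

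Enhancer-type regions, made by merging H3K4me1 and H3K4me2 peaks of both treatments and leaving out H3K4me3 peaks and TSSs with 2.5 kb on both sides, lay within the bodies of 12 of 46 members (26.1%), beside 23.7% of all genes. There were 39 such regions, 15 in Cdk6, 8 in Ccnd3, 6 in Rb1, 2 in Pole and 1 each in Mcm6, Orc1, Cdc6, Ccnd2, Ccna2, Cdkn1a, Cdkn1b and E2f2. This was 2.78 regions per 100 kb of gene body, beside 1.39 over all genes. Cdk6, Ccnd3 and Rb1 held 29 of the 39 regions, so this density rests largely on these genes. Pola1, the member with the longest body (327390 bp), held 0. H3K4me1 was called at 34 of 39 regions in Veh and 33 in GSK, beside 76.7% and 89.1% of the 14536 regions in any gene body, and 28 regions had it in both. H3K27ac was called at 4 regions in Veh, 3 in Cdk6 and 1 in Ccnd3, with a shared peak over 2 of those in Cdk6, and at 0 in GSK, beside 2.94% and 0.564% of all such regions. H3K4me2 was called at 4 regions in Veh, in Ccnd2, Ccnd3 (2 regions) and E2f2, and at 0 in GSK, beside 7.86% and 2.63%. Pol II was called at 0 regions in Veh and at 1 in GSK, in intron 1 of Ccnd3 (chr17:47541263-47544349, percentile 60.9), beside 1.35% and 1.05%.

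LSD1 lay at 9 of the 39 regions in Veh and at 4 in GSK, beside 15.9% and 10.6% of regions in any gene body. The 3 regions with LSD1 in both were the region in intron 3 of Ccnd2 (chr6:127142530-127143969, percentiles 48.4 and 45.3), and regions of Ccnd3 in intron 1 (chr17:47541263-47544349, 66.9 and 22.5) and at the last exon (chr17:47598622-47599975, 28.3 and 3.1). In Veh only it lay at 2 further intron 1 regions of Ccnd3 (71.6 and 4.2), at 2 intron 4 regions of Cdk6 (92.9 and 8.9), in intron 4 of Rb1 (81.5) and in intron 6 of E2f2 (30.3). In GSK only it lay at 1 region in intron 5 of Cdk6 (13.0). All 10 regions lay in genes that act in G1 phase or on RB and E2F, as did 33 of the 39 regions with or without LSD1. With peaks of −log10 q of at least 5 only, LSD1 lay at 5 regions in Veh and 0 in GSK.

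The strongest of these peaks and the one in Rb1 are printed because they carried the highest LSD1 significance in Veh and had no LSD1 call in GSK. Each shows 300 bases around the LSD1 summit on the plus strand (GRCm38.p6), with a short stretch centred on the summit in capitals. The Cdk6 peak (chr5:3457069-3457552, −log10 p of 24.1, fold 7.07) has its summit inside a tandem run of the letters GTG, and the effect of this repeat on read mapping was not tested. The Rb1 peak (chr14:73289971-73290279, −log10 p of 10.5, fold 5.59) has no such run.
Cdk6 intron 4, chr5:3457227-3457526: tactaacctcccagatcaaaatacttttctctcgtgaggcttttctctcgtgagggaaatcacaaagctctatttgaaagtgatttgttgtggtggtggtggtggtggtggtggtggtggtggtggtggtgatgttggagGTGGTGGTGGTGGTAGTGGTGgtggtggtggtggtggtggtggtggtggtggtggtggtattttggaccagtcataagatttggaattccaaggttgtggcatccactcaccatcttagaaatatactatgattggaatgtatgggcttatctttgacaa
Rb1 intron 4, chr14:73289940-73290239: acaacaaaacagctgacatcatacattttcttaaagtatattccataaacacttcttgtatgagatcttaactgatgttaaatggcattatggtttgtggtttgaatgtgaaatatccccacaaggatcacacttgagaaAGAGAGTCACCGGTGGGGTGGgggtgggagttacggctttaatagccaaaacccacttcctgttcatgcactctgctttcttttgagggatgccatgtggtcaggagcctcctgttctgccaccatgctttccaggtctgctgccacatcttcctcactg

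**Figure D5:**
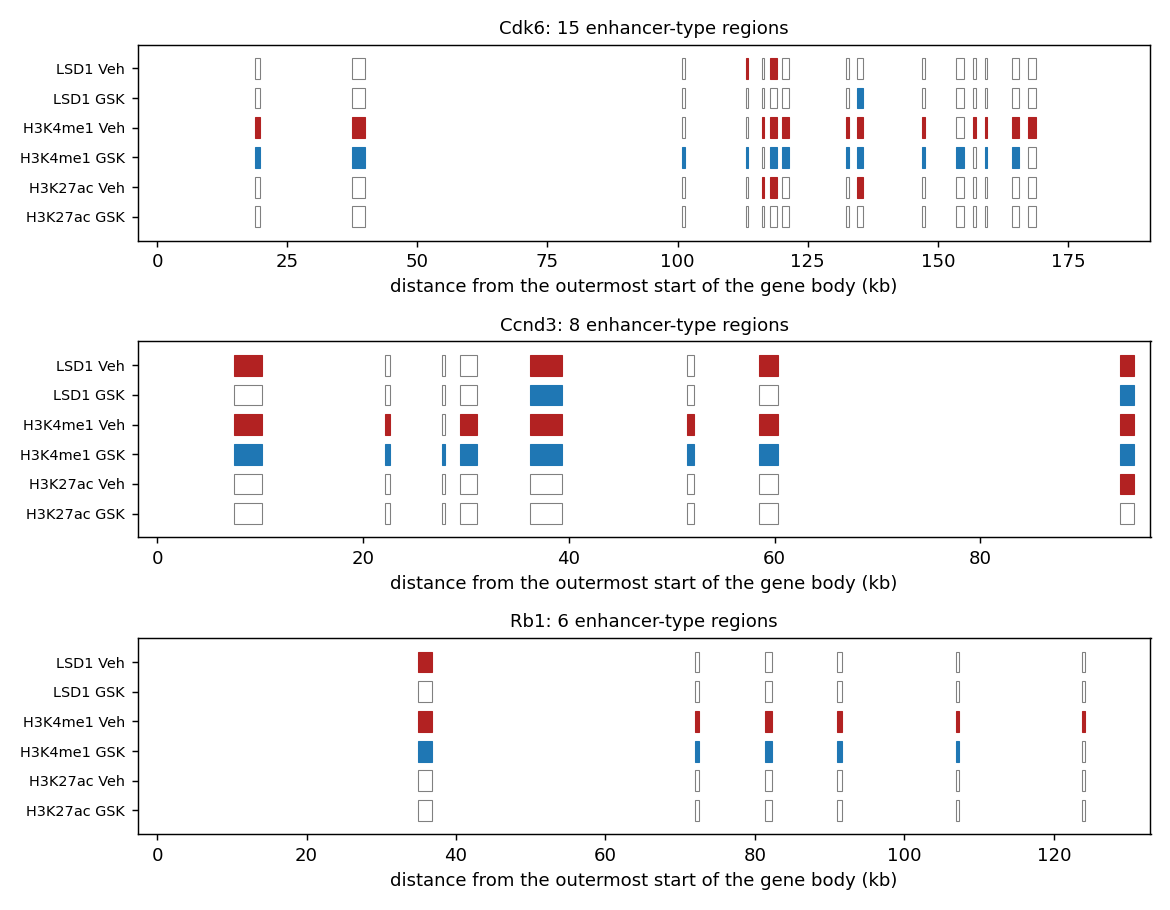
Enhancer-type regions within the bodies of Cdk6 (15 regions), Ccnd3 (8) and Rb1 (6), drawn to scale by distance in kb from the outermost annotated start of the gene in its direction of transcription. Each row is a peak list, filled boxes (red Veh, blue GSK) mark regions overlapped by a peak of that list and open boxes regions without one. LSD1 fills 7 boxes in the Veh rows and 3 in the GSK rows, and H3K27ac fills 4 in Veh and 0 in GSK.

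A further list of 60 genes of the same pathways, such as other subunits of ORC, GINS, the clamp loader and the kinetochore, was counted in the same way. H3K4me3 lay at 59 of the 60 in both treatments, beside 50.2% and 51.3% of all genes. LSD1 lay at 48 in Veh and 49 in GSK, beside 36.5% and 41.8%, and Pol II at 44 and 47, beside 29.4% and 25%. In the 60 genes LSD1 was in Veh only at 7 and Pol II in GSK only at 8, beside 4.46% and 2.95% of all genes. None of the 46 members had either. H3K27ac lay at 40 of the 60 in Veh and 22 in GSK, beside 20.6% and 8.61% of all genes. It was in Veh only at 20 and in GSK only at 2, beside 12.3% and 0.333%. H3K4me2 lay at 40 and 25, beside 39.2% and 28.3%. The median Pol II difference of the 60 genes was -2.39 points, with 18 genes higher and 21 lower in GSK. Their median LSD1 difference was 4.57 points.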

How the data were processed

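ChIP-seq peak lists of 12 libraries were analysed, and the 4 input samples, which carried no list, were not analysed here. Per the study's methods, the authors kept Bowtie2 alignments at unique positions of mm10, discarded duplicate reads using Samtools, and ran MACS2 on each ChIP library against input, with 0.001 as the p-value cutoff. The experiment was run more than once and each list comes from a single library. The authors deposited fold enrichment as a ratio of ChIP to background, at the summit for LSD1 and Pol II and averaged over the region for the histone marks. The −log10 p and −log10 q values of each peak and an integer score derived from them were also deposited by the authors. The lowest −log10 p was 3.00 in the Pol II lists and 3.01 in the LSD1 lists, while the histone lists began at −log10 q just above 3 and so were stricter.

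Curated RefSeq transcripts of GRCm38.p6 gave 31554 TSSs of 26089 genes. A gene was called where a peak overlapped TSS ± 1 kb of any TSS by at least 1 bp, and took the overlapping peak of highest fold, ranked within its own list. Enhancer-type regions followed the study's definition, and a region was assigned to a gene when its centre lay in the gene body. With 1 library per antibody and treatment no test was run. Overlaps were checked against bedtools 2.31.1 over all windows of the 12 lists, with 0 differences, and on simulated peaks. Python 3.11, numpy and pandas were used. The 46 members, the role groups, the motifs and the further pathway genes were chosen with earlier results of these data known. Full values were given for the member with the highest mean Pol II percentile in each role group, for members with LSD1, Pol II or H3K4me3 in 1 treatment only or without H3K4me3, for the 2 largest differences in each direction per antibody, and for members with LSD1 at an enhancer region. Alternatives were other windows, predicted transcripts, an overlap of 150 bp, −log10 q of at least 5, lists of equal length and other rankings.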

Additional observations from a re-analysis of the deposited data

How the results depend on the processing

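No paired analysis was possible because only the inputs share replicate numbers, they carry no peak list, and the results come from no test. Of 150 values recomputed for 26 results, 120 held their sign and size (counts within 1.5 times, medians and widths within the members' interquartile range), and in the others the cause was not tested. With peaks of −log10 q of at least 5, promoter peaks lay at 11 members in Veh and 18 in GSK for LSD1, at 2 and 6 for H3K4me1, at 10 and 6 for H3K4me2 and at 23 in GSK for Pol II. The median difference was then 6.75 points for LSD1 and -1.11 for H3K4me2, and enhancer regions with LSD1 numbered 5 in Veh and 0 in GSK and those with H3K27ac in Veh 2. Within 500 bp of the TSS, H3K4me1 lay at 4 members in Veh and 5 in GSK and H3K4me2 at 15 in Veh. Within 2.5 kb, H3K4me1 lay at 28 and 30, and the median difference was 5.53 for LSD1 and -0.61 for H3K4me1. With lists of equal length, H3K4me2 lay at 11 members in Veh, and the medians were 0.78 for LSD1, -3.39 for H3K4me1, -2.31 for H3K4me3 and 3.71 for H3K27ac. Ranking by −log10 p gave 1.10 for LSD1, -3.20 for H3K4me2, -0.39 for H3K4me3 and -0.09 for Pol II. Predicted transcripts gave 0.47 for LSD1. With 10 kb added to both sides of the gene bodies, LSD1 lay at 14 regions in Veh and H3K4me1 at 50 in GSK. Leaving out a replicate was not possible with 1 library per list. The Pol II counts in Veh, the H3K4me3 and H3K27ac promoter counts, the number of enhancer regions and the H3K4me3 width stayed within the limits given above. The H3K27ac counts came close to the limit of 1.5 times. They fell from 38 to 26 members in Veh with lists of equal length, and from 19 to 13 in GSK with −log10 q of at least 5.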
